A study of Mus musculus with 12 samples.

Results

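The genes described here are 8 members of the caspase and inhibitor of apoptosis (IAP) system: Casp2, Casp6, Casp9, Apaf1, Diablo, Xiap, Birc2 and Birc3. They were taken by gene name from the deposited count table, and 8 of 8 were found among its 57180 rows. All 8 also passed the filter on low counts that left 14362 genes to test. The RNA came from 2 mouse tumour cell lines, MB49 from a bladder cancer and KPC from a pancreatic ductal adenocarcinoma, both labelled with the genotype WT and grown in DMEM with fetal bovine serum. Each line gave 3 control libraries and 3 libraries from cells that had received 8 Gy of radiation, so that 4 groups of 3 made up the 12 libraries. Irradiated cells were kept in culture for 48 h. How long the controls grew is not given, so growth time and dose cannot be told apart. The study's treatment text also speaks of senescent cells of both lines, but the libraries' own labels give only the line and control or 8 Gy. Whether the replicates are separate cultures is not stated, so p-values reflect only the spread between these libraries, which may be technical.

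Caspases are proteases that dismantle the cell in apoptosis. Initiator caspases are activated on protein platforms: Caspase-9 on the apoptosome, which Apaf-1 builds when mitochondria release cytochrome c, and Caspase-2 on the PIDDosome, a platform linked to DNA damage and to failed cell division. Effector caspases then cut cellular proteins. IAP proteins hold the cascade back. XIAP binds caspases directly, whereas cIAP1 (Birc2) and cIAP2 (Birc3) act mainly as ubiquitin ligases at tumour necrosis factor (TNF) receptors and in the complex that keeps the kinase NIK low. Diablo (Smac) is released from mitochondria and displaces IAPs from caspases.

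Birc3 showed the widest gap between the lines, Birc2 is its neighbour in the mouse genome, and Casp6 had the largest rise of the 8 genes after radiation. The 250 bases before the start of each of these 3 genes are therefore shown, from RefSeq on build GRCm38.p6. That build is older than the GRCm39 named in the submitters' processing notes, so the windows were placed by gene name alone. All sequences run 5′ to 3′ on the gene's own strand, and capitals mark the motif match named below. Birc2 had 2 annotated starts, of which the first listed is shown.
Birc3: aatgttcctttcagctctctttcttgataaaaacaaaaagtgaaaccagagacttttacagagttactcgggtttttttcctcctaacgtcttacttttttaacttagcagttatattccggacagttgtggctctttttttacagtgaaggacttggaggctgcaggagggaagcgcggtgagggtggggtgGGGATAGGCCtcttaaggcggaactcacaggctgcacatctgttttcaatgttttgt
Birc2: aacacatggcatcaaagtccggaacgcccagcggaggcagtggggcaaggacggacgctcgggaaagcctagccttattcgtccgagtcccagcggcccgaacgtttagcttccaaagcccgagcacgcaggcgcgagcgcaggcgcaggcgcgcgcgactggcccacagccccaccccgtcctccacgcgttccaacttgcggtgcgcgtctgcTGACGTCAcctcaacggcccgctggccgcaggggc
Casp6: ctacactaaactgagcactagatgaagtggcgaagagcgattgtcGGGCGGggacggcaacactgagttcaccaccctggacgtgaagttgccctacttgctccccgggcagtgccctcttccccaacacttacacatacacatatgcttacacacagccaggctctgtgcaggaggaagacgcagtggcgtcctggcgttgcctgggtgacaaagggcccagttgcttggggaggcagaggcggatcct

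The Birc3 window (chr9:7873171-7873420, minus strand) had 43.6% G and C and 6 CpG pairs, against medians of 52.4% and 6 over 32851 windows of the same length. Its capitals mark 1 match to the NF-kB pattern, GGGA and CC parted by any 4 bases, starting 57 bases before the gene's start. That pattern stood in 17.6% of all windows. The Birc2 window (chr9:7837058-7837307, minus strand) was richer in G and C, at 68.4% with 31 CpG pairs, and its capitals mark the palindrome TGACGTCA of the CRE, 35 bases before the start, which 1.55% of all windows held. The window of the other Birc2 start had no such match and held 2 GC boxes. The Casp6 window (chr3:129901165-129901414, plus strand) had 58.4% G and C, 11 CpG pairs and 1 GC box (GGGCGG, in 32.7% of all windows), marked in capitals 205 bases before the start. Both strands were searched, and overlaps between motifs were allowed. The E-box CACGTG, the AP-1 pattern TGANTCA, the GAS pattern TTCNNNGAA, the ISRE-like pattern (a repeated GAAA parted by any pair of bases) and a pair of p53 core motifs had no match in these 3 windows. They stood in 6.02%, 6.75%, 7.02%, 2.98% and 5.84% of all windows. A match describes the letters only.

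The libraries held 19006015 to 26337950 counts each. Between 12201 and 13024 genes had at least 10 counts. Levels are given as CPM, a gene's share of its library's counts after TMM scaling, which sets libraries to a common level over most genes. Changes come from edgeR's quasi-likelihood test, and the threshold was an adjusted p (Benjamini-Hochberg, over the 14362 genes) under 0.05. The scaling factors were 0.8291 to 0.9761 in the irradiated libraries and 1.068 to 1.18 in the controls. A small change after radiation therefore depends on the scaling. In 3 groups 1 library stood apart: the third MB49 control, the third irradiated MB49 library and the first KPC control. Pairs with one of these had a chi-square per degree of freedom of 36.6 to 143 over gene counts, against 7.45 to 23.1 for other pairs within a group. The first KPC control also had 5.112% of its counts on the ribosomal RNA gene Rn18s-rs5, against 0.1411 to 0.5475% in the other libraries.

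Cell type markers, in CPM of library totals, followed the labelled tissues only in part: the pancreatic sum was higher in KPC, and so was the urothelial sum. Summed over 7 urothelial markers, levels were 15.0 to 18.9 CPM in MB49 controls, 4.15 to 4.89 in irradiated MB49, 26.8 to 35.3 in KPC controls and 33.3 to 36.6 in irradiated KPC. The uroplakins were at or near 0 in both lines. Pparg made most of the urothelial gap, at 0.08 and 0.01 CPM in control and irradiated MB49 and 12.4 and 22.3 CPM in KPC. Gata3 was at 16.2 CPM in MB49 controls and 18.2 CPM in KPC controls, and at 3.59 and 12.4 CPM after radiation. Krt5 went the other way, with 10 and 48 counts in MB49 and 0 in both KPC groups. Summed over 5 pancreatic duct markers, levels were 170 to 193 and 132 to 173 CPM in MB49 and 266 to 343 and 208 to 234 CPM in KPC. Of these, Sox9 was about as high in both lines, Pdx1 was lower in irradiated KPC (18.5 CPM) than in MB49 controls (19.7 CPM), and Foxa2 was at 0 in MB49. Of 5 epithelial markers, Krt8 and Krt18 were high in both lines, while Epcam was at most 1.40 CPM in any group, and Cdh1 and Krt19 were at most 1.07 and 4.36 CPM in MB49. The epithelial sum was 2670 to 3080 and 2630 to 3210 CPM in MB49, and it went from 879 to 960 CPM in KPC controls to 2900 to 3100 CPM after radiation.

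Markers of other cell types also moved with radiation. Summed over 5 fibroblast and endothelial markers, levels went from 48.8 to 59.5 CPM in MB49 controls to 139 to 206 CPM after radiation, mostly Dcn (41.2 and 128 CPM). In KPC they went from 108 to 153 CPM in the controls to 47.7 to 53.3 CPM, mostly Pdgfrb (116 and 43.5 CPM). None of the 5 was at 0 in MB49 and 1, Cdh5, in both KPC groups. Summed over 6 immune cell markers, levels were at most 1.56 CPM in any library, and Ptprc had 1 count in the 12 libraries. The part of these markers in the changes given below was not tested.

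Casp6 rose after radiation in both lines, Casp9 rose in both, and Casp2 rose in KPC. Birc3 fell in MB49 and rose in KPC. Birc2 and Diablo fell in MB49, and Apaf1 and Xiap passed the test in neither line. Fewer cells expressing a gene and less of its RNA per cell cannot be told apart in these bulk libraries. In MB49, 2 of the 8 genes rose and 3 fell, where 66.9% of all genes tested were called, 35.3% as higher and 31.6% as lower. The median log2 fold change of the 8 was -0.09, beside 0.04 over all genes. In KPC, 4 rose and none fell, where 63.3% of all genes were called, 31.3% as higher and 32.0% as lower. The median was 0.32 beside -0.01 over all genes. With library totals in place of TMM factors, 2 genes rose and 2 fell in KPC, where 3086 of all 14362 genes were called higher and 6620 lower. That scaling moved the median of all genes by -0.38 on the log2 scale in KPC and by -0.30 in MB49.

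**Figure D1:**
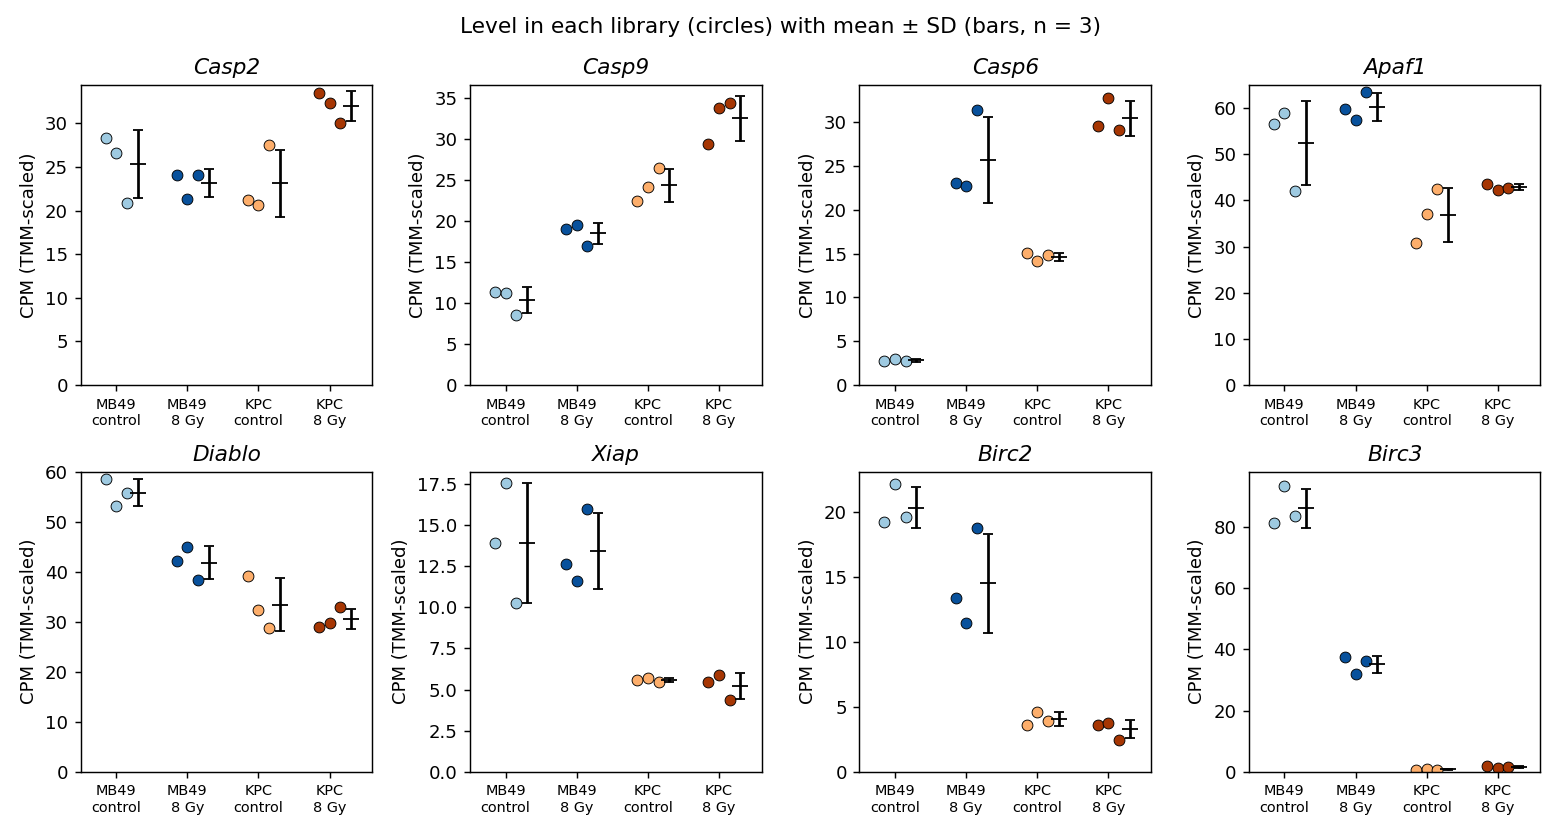
Level of each of the 8 genes in CPM (vertical axes, each starting at 0) in the 12 libraries, as circles by group, with the mean and SD (bars, n = 3) beside them. Casp6 is under 3 CPM in the MB49 controls and above 22 CPM in every irradiated library, and Birc3 is under 2 CPM in every KPC library.

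Casp2 encodes the initiator caspase of the PIDDosome. Its levels in the MB49 controls were 28.4, 26.6 and 20.9 CPM, and in the irradiated MB49 libraries 24.0, 21.4 and 24.1 CPM. These groups overlapped, and the log2 fold change of -0.13 ± 0.14 (SE, n = 3 and 3) was not called (edgeR adjusted p = 0.441). With library totals it was -0.42 and called (edgeR adjusted p = 0.0249). In KPC the controls had 21.2, 20.6 and 27.6 CPM and the irradiated libraries 33.5, 32.3 and 30.1 CPM, without overlap. The log2 fold change was 0.47 ± 0.14 (edgeR adjusted p = 0.00839). Irradiated KPC was thus the highest of the 4 groups, and the means of the other 3, between 23.1 and 25.3 CPM, lay within the spread of their libraries. The response in KPC exceeded that in MB49 by 0.59 ± 0.20 on the log2 scale (edgeR adjusted p = 0.0238). This difference lost its call in 4 of the 12 fits that left out 1 library, with adjusted p of 0.0707 without the first MB49 control, 0.0618 without the second irradiated MB49 library, 0.073 without the second KPC control and 0.0598 without the first irradiated KPC library. With library totals the difference was 0.50 and not called (edgeR adjusted p = 0.0766). The rise within KPC was not called with library totals (log2 fold change 0.08, edgeR adjusted p = 0.667) or without the second KPC control (0.39, edgeR adjusted p = 0.0527).

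Casp9 encodes the initiator that the apoptosome activates. MB49 controls had 11.3, 11.2 and 8.50 CPM and irradiated MB49 libraries 19.0, 19.5 and 17.0 CPM, a log2 fold change of 0.84 ± 0.14 (edgeR adjusted p = 4.24e-05). KPC controls had 22.5, 24.2 and 26.4 CPM and irradiated KPC libraries 29.4, 33.8 and 34.4 CPM, a log2 fold change of 0.42 ± 0.13 (edgeR adjusted p = 0.0113). The 4 groups did not overlap: MB49 controls were lowest, followed by irradiated MB49, KPC controls and irradiated KPC. The difference between the responses, -0.42 ± 0.19 on the log2 scale, was not called (edgeR adjusted p = 0.0866). The rise in KPC was not called with library totals (0.03, edgeR adjusted p = 0.871), and there the difference of responses was (-0.51, edgeR adjusted p = 0.0485).

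Apaf1 encodes the scaffold of the apoptosome. It had 56.5, 58.9 and 42.2 CPM in the MB49 controls and 59.9, 57.4 and 63.4 CPM in irradiated MB49. KPC had 30.7, 37.1 and 42.5 CPM in the controls and 43.5, 42.3 and 42.8 CPM after radiation. Control and irradiated libraries overlapped in both lines. The log2 fold changes were 0.20 ± 0.14 in MB49 (edgeR adjusted p = 0.220) and 0.22 ± 0.14 in KPC (edgeR adjusted p = 0.180), and the sign of both turned with library totals. KPC was lower than MB49 in the controls, by -0.52 ± 0.14 (edgeR adjusted p = 0.00345), although the third MB49 control lay within the KPC range. After radiation the lines did not overlap, and the difference was -0.49 ± 0.14 (edgeR adjusted p = 0.00539). Irradiated KPC and control MB49, neighbours in the order of levels, overlapped.

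Casp6 encodes an effector caspase known for cutting nuclear lamins. It was the most changed of the 8 genes in MB49. The MB49 controls had 2.72, 2.97 and 2.73 CPM, from 219 counts in all, and the irradiated MB49 libraries 23.0, 22.7 and 31.3 CPM, from 1542 counts. The 2 groups were far apart, and the fitted level rose 9.13-fold (log2 fold change 3.19 ± 0.16, edgeR adjusted p = 1.45e-11). In KPC the controls, at 15.0, 14.1 and 14.8 CPM, were already above the MB49 controls by 2.38 ± 0.15 on the log2 scale (edgeR adjusted p = 3.19e-10). Irradiated KPC libraries had 29.5, 32.7 and 29.0 CPM, a 2.08-fold rise (log2 fold change 1.06 ± 0.14, edgeR adjusted p = 3.21e-06).

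The KPC response of Casp6 was smaller than the MB49 response by -2.13 ± 0.20 on the log2 scale (edgeR adjusted p = 4.76e-07). After radiation the 2 lines overlapped, because the third irradiated MB49 library reached the KPC range. Their difference of 0.25 ± 0.13 was not called (edgeR adjusted p = 0.121), but was called without that library (0.41, edgeR adjusted p = 0.00751). The call in each line and the call of the difference between responses held under every other setting and with any 1 library left out. Short genes tended to rise in MB49: by eighths of gene length, the median log2 fold change ran from 0.65 in the shortest to -0.29 in the longest. Casp6, at 1456 bases, stood 2.84 above the median of its own eighth. In KPC these medians lay between -0.09 and 0.02.

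Diablo encodes the mitochondrial protein that frees caspases from IAPs. It had 58.5, 53.2 and 55.8 CPM in the MB49 controls and 42.3, 44.9 and 38.4 CPM after radiation. All irradiated MB49 libraries were lower, with a log2 fold change of -0.42 ± 0.13 (edgeR adjusted p = 0.00736). KPC controls had 39.2, 32.3 and 28.8 CPM and irradiated KPC libraries 29.1, 29.8 and 32.9 CPM. These overlapped, and the log2 fold change of -0.13 ± 0.13 was not called (edgeR adjusted p = 0.396). With library totals it was -0.51 and called (edgeR adjusted p = 0.000771). The responses of the lines differed by 0.29 ± 0.18, which was not called (edgeR adjusted p = 0.206). Without the first KPC control it was 0.53 and called (edgeR adjusted p = 0.014). KPC was lower than MB49 both in the controls (-0.74 ± 0.13, edgeR adjusted p = 5.41e-05) and after radiation (-0.45 ± 0.13, edgeR adjusted p = 0.00492).

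Reads of Diablo may be shared with other genes. Its estimated count was not a whole number in 10 of the 12 libraries. Of its 50-base stretches, 17.6% also stood in another gene's transcripts in the same orientation, chiefly the gene model Gm49027. In the reverse orientation it was 20.9%, chiefly in B3gnt4. The transcripts were those of GENCODE on the build before GRCm39, so they may differ from the annotation used for counting. Gm49027 had 3 counts in the 12 libraries together. B3gnt4 averaged 0.79 CPM in the MB49 controls and at most 0.19 CPM in the other groups. The part of this sharing in the fall of Diablo was not tested.

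Xiap encodes the IAP that binds caspases directly. It had 13.9, 17.6 and 10.3 CPM in the MB49 controls and 12.7, 11.6 and 16.0 CPM after radiation. In KPC it had 5.57, 5.72 and 5.47 CPM in the controls and 5.46, 5.90 and 4.34 CPM after radiation. Radiation left overlapping groups in both lines, with log2 fold changes of -0.06 ± 0.19 in MB49 (edgeR adjusted p = 0.811) and -0.09 ± 0.20 in KPC (edgeR adjusted p = 0.721). The direction of both turned in some fits that left out a library. Every KPC library was below every MB49 library: the difference was -1.32 ± 0.20 in the controls (edgeR adjusted p = 1.24e-05) and -1.35 ± 0.20 after radiation (edgeR adjusted p = 1.36e-05).

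Birc2 encodes cIAP1. MB49 controls had 19.2, 22.1 and 19.6 CPM and irradiated MB49 libraries 13.4, 11.4 and 18.8 CPM. The groups did not overlap, but the third irradiated library came close to the controls. The log2 fold change was -0.48 ± 0.19 (edgeR adjusted p = 0.0301). It lost its call with a replicate block (adjusted p = 0.0502), without the second MB49 control (adjusted p = 0.09), without the first irradiated MB49 library (adjusted p = 0.0926) and without the second (adjusted p = 0.154). In KPC the levels were 3.62, 4.64 and 3.92 CPM in the controls and 3.62, 3.77 and 2.46 CPM after radiation. The change of -0.30 ± 0.21 was not called (edgeR adjusted p = 0.237), and with library totals it was -0.68 and called (edgeR adjusted p = 0.021). KPC was lower than MB49 by -2.32 ± 0.20 in the controls (5.00-fold, edgeR adjusted p = 1.56e-08) and by -2.14 ± 0.21 after radiation (4.40-fold, edgeR adjusted p = 8.43e-08).

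Birc3 encodes cIAP2 and is known as a target gene of NF-kB. The MB49 controls had 81.3, 93.4 and 83.5 CPM, and irradiated MB49 libraries 37.4, 32.1 and 36.1 CPM. The irradiated group was lower throughout, with a log2 fold change of -1.29 ± 0.13 (2.44-fold, edgeR adjusted p = 1.76e-07). KPC stood at the other end: its controls had 0.582, 0.972 and 0.694 CPM, from 57 counts in all, and its irradiated libraries 1.84, 1.30 and 1.66 CPM, from 96 counts. The irradiated KPC libraries were all above the controls, with a log2 fold change of 1.07 ± 0.23 (2.09-fold, edgeR adjusted p = 0.000542).

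The 2 responses of Birc3 had opposite signs, and they differed by 2.36 ± 0.26 on the log2 scale (edgeR adjusted p = 2.53e-06). KPC controls were 113-fold below MB49 controls (log2 difference -6.82 ± 0.19, edgeR adjusted p = 6.11e-15). After radiation the gap was 22.1-fold (-4.47 ± 0.17, edgeR adjusted p = 2.88e-13). These calls held under every setting and with any 1 library left out. Immune cell markers also moved with the rise in KPC: their sum was 0.0444 to 0.186 CPM in the controls and 1.18 to 1.56 CPM after radiation. Most of it was Csf1r, at 9 counts in the controls and 98 after radiation. The other 5 markers had 1 count in the controls and 1 after radiation, and 4 of the 6, including Ptprc, were at 0 in both groups. Their part in the result was not tested. The Birc3 count was not whole in 9 of the 12 libraries. Of its 50-base stretches, 7.38% stood in another gene's transcripts in the same orientation, of which 1.28% in Birc2 and 4.19% in Gm7019, which had 0 counts. In either orientation, 164 other genes shared a stretch with Birc3.

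**Figure D2:**
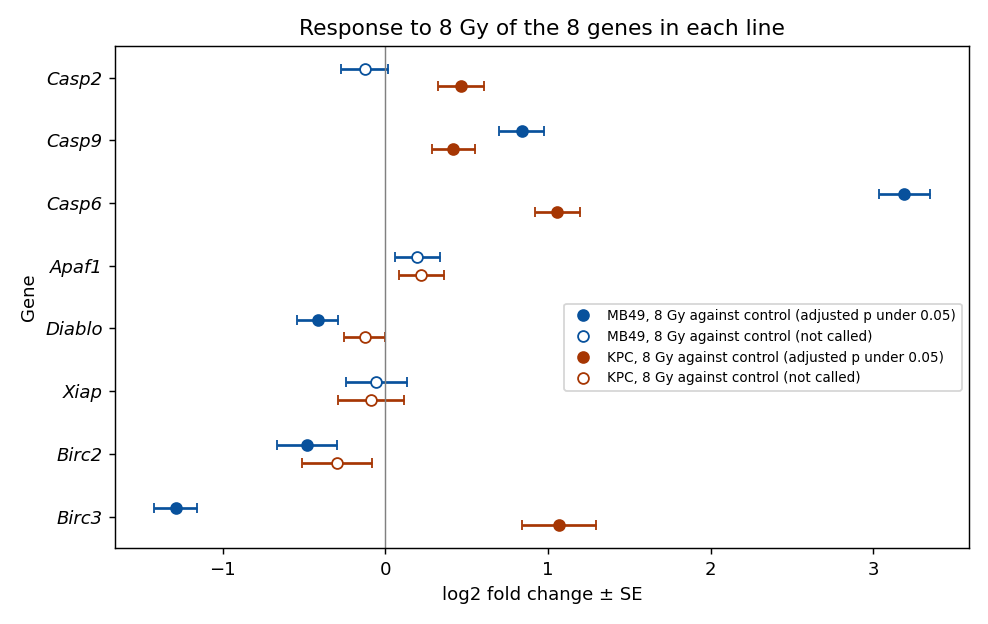
Log2 fold change after 8 Gy (horizontal axis, with SE as bars) of each gene in MB49 and KPC, with filled circles for an adjusted p under 0.05. Casp6 lies at 3.19 in MB49 and 1.06 in KPC, and Birc3 is the gene called on opposite sides of 0.

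For the difference between the responses, 2 of the 8 genes were called higher in KPC (Casp2 and Birc3) and 1 lower (Casp6), where 42.9% of all genes were called, 20.9% as higher and 22.0% as lower. With library totals, 1 was called higher and 2 lower. In the comparison of controls, 2 were higher in KPC (Casp6 and Casp9) and 5 lower (Apaf1, Diablo, Xiap, Birc2 and Birc3), where 67.3% of all genes were called, 33.0% as higher and 34.4% as lower. The median of the 8 was -0.63, beside -0.02 over all genes. After radiation, Casp2 and Casp9 were higher in KPC and the same 5 genes lower, where 64.4% of all genes were called, 31.0% as higher and 33.4% as lower. With library totals, 1 was higher, Casp9. The line comparisons share their libraries with the radiation comparisons.

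Levels of different genes were set against each other per kilobase of gene length. In the MB49 controls Birc3 had the highest level of the 8, at a mean of 32.3 CPM per kb, followed by Diablo at 16.5 CPM per kb. Casp6 was lowest there, at 1.93 CPM per kb, beside Xiap at 2.04 CPM per kb. After radiation Casp6 was the highest of the 8 in MB49, with a mean of 17.6 CPM per kb, above Birc3 at 13.2 and Diablo at 12.4 CPM per kb. In irradiated KPC, Casp6 again had the highest mean, 20.9 CPM per kb, and Birc3 the lowest, 0.599 CPM per kb. In KPC controls, Casp6 at 10.0 and Diablo at 9.87 CPM per kb differed by less than the spread of the Diablo libraries.

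**Figure D3:**
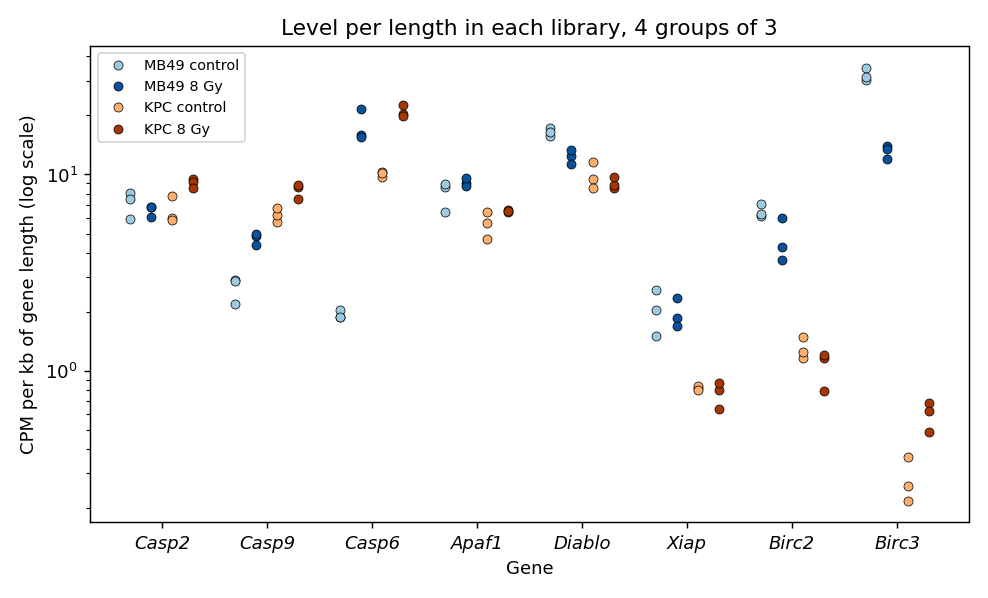
Level per kilobase of gene length (CPM per kb, log scale) of the 8 genes in each of the 12 libraries, coloured by group. Xiap, Birc2 and Birc3 lie lower in every KPC library than in every MB49 library.

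The make-up of the 3 IAP transcripts differed between the lines. Birc3 gave 78.4 to 80.1% of their summed level per kilobase in the MB49 controls and 61.9 to 69.6% in irradiated MB49. In KPC it gave 9.97 to 13.6% in the controls and 19.1 to 30.4% after radiation. The 4 groups did not overlap in this share. The summed level was 38.7 to 44.7 CPM per kb in MB49 controls and 17.4 to 21.9 after radiation. In KPC the sum was 2.19 to 2.68 CPM per kb in the controls and 2.04 to 2.64 after radiation, with overlap. As a ratio within each library, Birc3 over Birc2 was 4.96 to 5.00 per kilobase in the MB49 controls and 2.25 to 3.30 after radiation, and 0.189 to 0.246 and 0.405 to 0.792 in KPC.

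**Figure D4:**
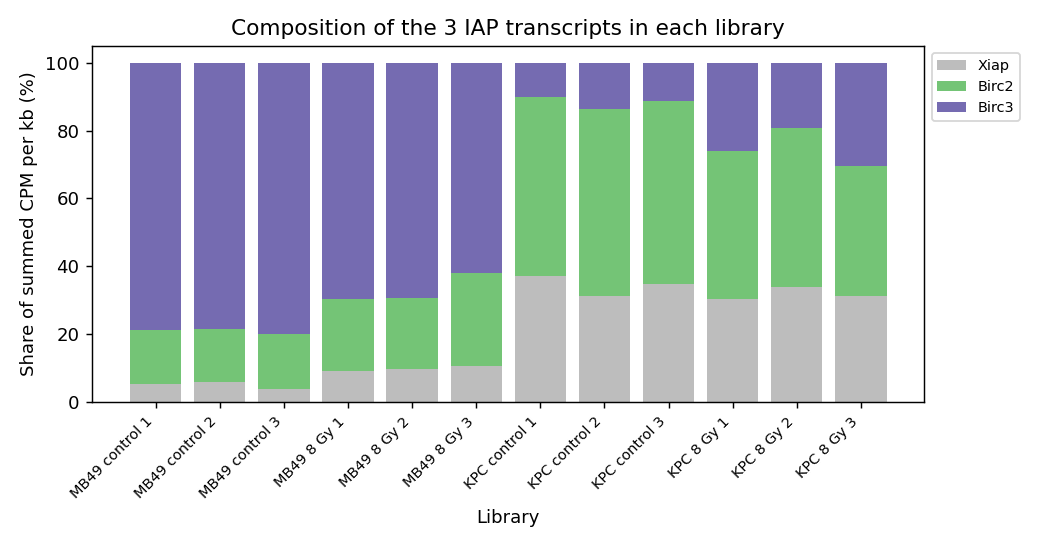
Share of Xiap, Birc2 and Birc3 in their summed CPM per kb (vertical axis, percent) in each library. Birc3 gives most of the sum in the 6 MB49 libraries and at most 30.4% in the 6 KPC libraries.

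Casp9 over Apaf1 per kilobase, the initiator over its scaffold, was 0.320 to 0.340 in the MB49 controls and 0.452 to 0.573 after radiation. In KPC it was 1.05 to 1.23 in the controls and 1.14 to 1.36 after radiation, so the KPC groups overlapped and lay above both MB49 groups. Diablo over Xiap was 6.10 to 10.9 in the MB49 controls, 4.84 to 7.80 in irradiated MB49, 10.6 to 14.2 in KPC controls and 10.2 to 15.3 in irradiated KPC. Control and irradiated libraries overlapped in both lines.

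For each gene, the 2 genes of most similar pattern were found by the root mean square difference of centred log2 CPM over the 12 libraries. The nearest were Cbfa2t2 (0.11) and Sav1 (0.11) for Casp2, Ahcy (0.14) and Rrm2 (0.14) for Casp9, Mapk6 (0.07) and Bod1l (0.09) for Apaf1, and Dpysl5 (0.26) and Dcaf4 (0.26) for Casp6. Diablo lay nearest to Ran (0.10) and Lpcat4 (0.13), and Xiap to Trappc8 (0.16) and Ogt (0.17). Birc2 lay nearest to Tmem123 (0.19), its neighbour on the chromosome, and to Aim2 (0.21). Birc3 had the largest distances, to Calhm2 (0.27) and Fgf1 (0.42), and it also varied most over the libraries, with an SD of 2.84 on the log2 scale. Casp2 varied least, with an SD of 0.24. The distances were not set relative to these SDs.

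Of 26 other genes of the apoptosis pathway, 23 could be tested. In MB49, 13 rose and 6 fell, where 66.9% of all genes were called, with a median log2 fold change of 0.54 beside 0.04 over all genes. In KPC, 8 rose and 5 fell, where 63.3% of all genes were called, with a median of 0.17 beside -0.01. With library totals, 10 fell in KPC, where 6620 of all 14362 genes tested were called lower. The difference between the responses was called higher in KPC for 5 and lower for 7, where 42.9% of all genes were called. Casp8, the initiator at death receptors, fell by 0.81 ± 0.12 in MB49 (edgeR adjusted p = 1.44e-05). Its change of 0.28 ± 0.12 in KPC was not called (edgeR adjusted p = 0.0521). That change was called as a rise with RLE factors (edgeR adjusted p = 0.0208) and with only the libraries compared (edgeR adjusted p = 0.039). DESeq2 (adjusted p = 0.012) and limma voom (adjusted p = 0.0419) also called it. With library totals it was -0.10 and not called (edgeR adjusted p = 0.512). It was called without the third irradiated MB49 library, the first KPC control or the third irradiated KPC library (edgeR adjusted p of 0.0325, 0.0479 and 0.0483). Fadd, the adaptor that brings Caspase-8 to those receptors, fell in both lines, from 30.9 to 3.32 CPM in MB49 (log2 fold change -3.22 ± 0.16, edgeR adjusted p = 2.47e-11) and from 28.9 to 4.02 CPM in KPC (-2.84 ± 0.16, edgeR adjusted p = 1.02e-10).

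Cytochrome c, the signal for the apoptosome, is encoded by Cycs, which rose in MB49 (0.67 ± 0.25, edgeR adjusted p = 0.0333, with overlapping libraries) and fell in KPC (-1.24 ± 0.26, edgeR adjusted p = 0.000917). The rise in MB49 was not called with library totals (0.38, edgeR adjusted p = 0.187). It also lost its call without the first MB49 control (0.49, adjusted p = 0.117), without the second (0.58, adjusted p = 0.114), without the third irradiated MB49 library (0.44, adjusted p = 0.165) and without the second irradiated KPC library (0.67, adjusted p = 0.0514). Of 4 tested genes whose proteins are known to oppose IAPs, 3 rose and 1 fell in MB49, and 3 rose in KPC. Of all genes tested, 35.3% were called higher and 31.6% lower in MB49, and 31.3% higher and 32.0% lower in KPC. Htra2, a mitochondrial protease, fell in MB49 (-0.36 ± 0.13, edgeR adjusted p = 0.0180, with overlapping libraries) and was not called in KPC (0.16 ± 0.12, edgeR adjusted p = 0.262). Arel1 rose in both lines, by 0.92 ± 0.13 and 1.36 ± 0.13. Both are outside the rule for naming genes and are given to complete the group. Xaf1, a XIAP-associated factor known as an interferon-induced gene, went from 1.10 to 48.6 CPM in MB49 (5.48 ± 0.20, edgeR adjusted p = 5.47e-13) and from 16.0 to 249 CPM in KPC (3.96 ± 0.16, edgeR adjusted p = 1.74e-12). Septin4, whose short ARTS product binds XIAP, had 2 counts in the MB49 controls and 68 after radiation. Per effective library size that was a ratio of 44.5, with a 95% interval from counting error alone of 11.8 to 374. In KPC it rose from 0.26 to 3.57 CPM (3.73 ± 0.40, edgeR adjusted p = 3.40e-07).

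The NAIP genes carry the BIR domain of the IAP family and are known as sensors of bacterial proteins. Naip2 rose in both lines, by 1.22 ± 0.15 in MB49 (edgeR adjusted p = 1.39e-06) and 3.46 ± 0.18 in KPC (edgeR adjusted p = 3.24e-11). Naip6 was called in the same direction, by 1.24 and 3.07, from 6 counts in the KPC controls. In MB49 its libraries overlapped, and the call was lost with library totals, no filter, DESeq2, limma voom and a replicate block (adjusted p up to 0.095). It was also lost without the first or the third MB49 control, the first or the third irradiated MB49 library, or the first KPC control (log2 fold change 0.94 to 1.15, adjusted p up to 0.14). Naip5 rose in KPC from 8 counts to 119 (4.11 ± 0.57, edgeR adjusted p = 6.70e-06). NAIP genes are near-identical copies, and reads may be split between them. Dffa and Dffb encode the inhibitor and the nuclease that cuts DNA in apoptosis. Dffb rose in MB49, from 1.01 to 7.18 CPM (2.84 ± 0.22, edgeR adjusted p = 4.06e-09). Its change of 0.19 ± 0.19 in KPC was not called (edgeR adjusted p = 0.380), and the responses differed by -2.65 ± 0.29 (edgeR adjusted p = 1.82e-06). Dffa fell in both lines (-0.87 ± 0.15 in MB49 and -0.73 ± 0.15 in KPC). The nuclease gene Endog fell in KPC (-0.99 ± 0.30, edgeR adjusted p = 0.00769).

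Further genes, chosen after their values were seen, stood beside the members by role. Pidd1, which encodes the platform protein that activates Caspase-2, rose in MB49 from 10.6 to 37.7 CPM (1.83 ± 0.13, edgeR adjusted p = 2.57e-09). In KPC, where Casp2 itself rose, Pidd1 was at 45.1 CPM in the controls and 38.3 CPM after radiation (-0.24 ± 0.13, edgeR adjusted p = 0.114). Cradd, listed with Pidd1 among the adaptor and PIDDosome genes, fell in MB49 from 1.78 to 1.24 CPM (-0.52 ± 0.21, edgeR adjusted p = 0.0360). In KPC, Cradd was at 12.5 CPM in the controls and 10.2 CPM after radiation (-0.29 ± 0.16, edgeR adjusted p = 0.120). Birc5, which encodes survivin, an IAP family member that works in cell division, rose from 39.8 to 68.9 CPM in MB49 (0.79 ± 0.12, edgeR adjusted p = 2.58e-05) and from 15.8 to 66.2 CPM in KPC (2.06 ± 0.13, edgeR adjusted p = 4.48e-10). Birc6, of the same family, went the other way. It fell from 73.5 to 43.2 CPM in MB49 (-0.77 ± 0.20, edgeR adjusted p = 0.00317) and from 67.2 to 47.1 CPM in KPC (-0.51 ± 0.20, edgeR adjusted p = 0.0360).

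Of 17 genes of the receptor and NIK complexes in which cIAP1 and cIAP2 act, all 17 were tested. In MB49, 3 rose and 6 fell, where 66.9% of all genes were called, with a median log2 fold change of -0.07 beside 0.04 over all genes. In KPC, 7 rose and 6 fell, where 63.3% of all genes were called, with a median of 0.09 beside -0.01. Tnfaip3, which encodes the NF-kB inhibitor A20, was the gene of this list called with opposite signs. It went from 143 to 59.6 CPM in MB49 (-1.26 ± 0.13, edgeR adjusted p = 1.65e-07) and from 23.6 to 50.6 CPM in KPC (1.10 ± 0.13, edgeR adjusted p = 1.22e-06). Its responses differed by 2.37 ± 0.18 (edgeR adjusted p = 4.60e-08), beside 2.36 ± 0.26 for Birc3.

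Among receptors, Tnfrsf1a (TNF receptor 1) rose by 1.20 ± 0.13 in MB49 and 1.04 ± 0.13 in KPC, and Tnfrsf12a (the TWEAK receptor) fell (-2.40 ± 0.17 and -1.90 ± 0.16). Cd40 rose from 29.6 to 77.0 CPM in MB49 (1.38 ± 0.16, edgeR adjusted p = 1.14e-06). In KPC it had 1 count in the controls and 67 after radiation, a ratio of 83.1 per effective library size with a 95% counting interval of 14.4 to 3330. Ikbkg, which encodes the NEMO subunit of the IKK complex, rose by 1.59 ± 0.10 and 1.49 ± 0.10, and Relb, the NF-kB subunit that NIK signalling activates, fell (-1.26 ± 0.13 and -1.08 ± 0.13). Ripk1, a substrate of the cIAP ligases, rose in KPC by 2.13 ± 0.14 (edgeR adjusted p = 7.62e-10). Its change of -0.07 ± 0.13 in MB49 was not called (edgeR adjusted p = 0.666).

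The TRAF adaptors bring cIAP1 and cIAP2 to receptors and to NIK. Traf1 fell from 644 to 148 CPM in MB49 (-2.12 ± 0.14, edgeR adjusted p = 4.79e-10) and from 71.1 to 1.39 CPM in KPC (-5.66 ± 0.18, edgeR adjusted p = 6.62e-14). Traf3, the adaptor that links NIK to the cIAP complex, was near 0 in MB49, with 28 counts in the 3 controls and 37 after radiation. In KPC it had 82.9 CPM in the controls and 26.0 CPM after radiation (-1.68 ± 0.17, edgeR adjusted p = 2.07e-07). The gap between the controls of the lines was 7.83 ± 0.26 on the log2 scale (edgeR adjusted p = 4.70e-14), in the opposite direction to Birc3.

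**Figure D5:**
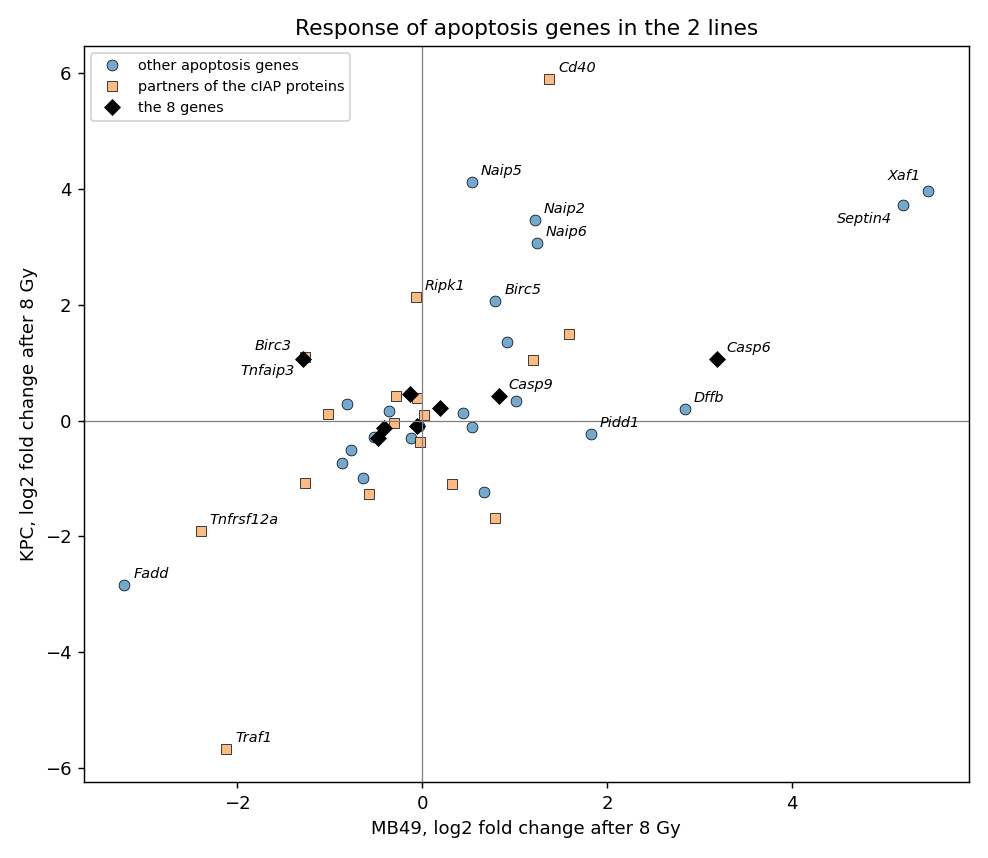
Log2 fold change after 8 Gy in MB49 (horizontal) and KPC (vertical) for the 8 genes, 22 of the 23 tested apoptosis genes and the 17 partners of the cIAP proteins, 1 point per gene. Birc3 and Tnfaip3 lie together at upper left, down in MB49 and up in KPC, while Casp6 and Xaf1 are up in both lines.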

How the data were processed

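The authors deposited a table of unscaled estimated counts for each gene, with 4 group-mean columns that were not used and a gene length column. Per the labels' protocols, libraries came from a stranded mRNA kit. The submitters' processing notes name fastp, HISAT2, StringTie and GRCm39, and the counting tool and its strand setting are not given in the sources used here. Per library, 6.201 to 8.652% of values were fractional (tolerance 1e-06), as a share of all 57180 rows with those at 0 included. Counts were rounded, filtered with filterByExpr by group, scaled by TMM and fitted robustly in edgeR 4.0.16 (R 4.3.3) with 1 coefficient per group over 12 libraries (8 residual degrees of freedom, common biological coefficient of variation 0.15). Tests were 2-sided. Standard errors were taken as |log2 fold change| / √F and are approximate. The 5 comparisons were 8 Gy against control per line, their difference, and KPC against MB49 per treatment. Similar patterns used log2 CPM with a prior count of 2. The fit was tested on simulated data. There, few genes changed between the KPC groups, equally often up and down. The simulation thus could not check the scaling between the libraries used here.

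The members and gene lists were chosen with earlier results of these data known. Named beside the members are list genes called in both lines with opposite signs, or with the same sign and at least 1 log2 in each, and the 3 largest rises and 3 largest falls per line with at least 1 CPM in either group. A gene that this rule names is not reported here. Alternatives were RLE factors, library totals, no filter, DESeq2 1.42.0, limma 3.58.1 voom, only the libraries compared, a replicate block, unrounded counts, no Rn18s-rs5, and each library left out. No gene coordinates are given except the promoter windows.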

Additional observations from a re-analysis of the deposited data

Results flagged for a closer look

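The responses of 3 of the 8 genes to 8 Gy differed between the lines by the test of the difference itself (edgeR, Benjamini-Hochberg adjusted p over all genes). By that test 42.9% of all genes were called, 20.9% as higher in KPC and 22.0% as lower. KPC minus MB49, the difference was 0.59 for Casp2 (adjusted p = 0.0238), -2.13 for Casp6 (adjusted p = 4.76e-07) and 2.36 for Birc3 (adjusted p = 2.53e-06) on the log2 scale. For Birc3, the 3 irradiated MB49 libraries all lay below the 3 MB49 controls. The 3 irradiated KPC libraries all lay above the 3 KPC controls, at 0.582 to 1.84 CPM over both KPC groups. Casp6 was higher in all irradiated libraries than in all controls of the same line. The call for Casp2 depended on single libraries and on the scaling, as given beside its values.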

How the results depend on the processing

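Over the 8 genes and 5 comparisons, 337 of 352 values under other settings kept their direction and side of the threshold. Of the rest, 4 gained a call, 5 lost one and 6 changed sign. With 1 library left out, 459 of 480 did so, 2 gained a call, 8 lost one and 11 changed sign. With library totals in place of TMM factors, 2 members were called higher and 2 lower in KPC, 1 higher and 2 lower for the difference of responses, and 1 higher between irradiated lines. In KPC that scaling called 3086 of all 14362 genes higher and 6620 lower. The count called higher for the difference ranged from 1 to 3 over the left-out libraries. Sign changes concerned uncalled values near 0. Apaf1 turned to -0.09912 in MB49, -0.1688 in KPC and -0.06968 for the difference with library totals, and to -0.02761, -0.05976 and -0.008132 for the difference with a library left out (range -0.05976 to 0.1649). Xiap turned to 0.1397 and 0.03866 in MB49 (range -0.2368 to 0.1397) and 0.02373 in KPC (-0.1839 to 0.02373) with a library left out. Its difference turned to 0.02787 (RLE factors), 0.02788 (DESeq2), 0.09212 (no filter) and, with a library left out, 0.1465, 0.1108, 0.07249 and 0.08263 (range -0.2308 to 0.1465). Diablo in KPC turned to 0.01561 without the first control (range -0.2252 to 0.01561). The cause was not tested. The same settings were run on the gene lists and their named genes after seeing the data: 10 apoptosis genes were called lower in KPC with library totals, where Dffb turned to -0.189 and Casp8 to -0.1017, and with a library left out Ripk1 turned to 0.01395 (range -0.1624 to 0.01395) and Naip5 to -0.1165 (-0.1165 to 1.041) in MB49.

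Replicate numbers are shared between groups, and whether they pair the libraries is not known. Same-numbered control and irradiated libraries had correlations of their deviations of 0.171, -0.178 and 0.055 in MB49 and -0.116, -0.0233 and 0.0194 in KPC. Differently numbered ones had -0.21 to 0.123 in MB49 and -0.117 to 0.126 in KPC. With 3 libraries per group, these values cannot decide the question. With the replicate block, 2 members rose and 2 fell in MB49 and 4 rose in KPC, and Birc2 in MB49 (-0.481, edgeR adjusted p = 0.0502) was the member that lost a call.

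Counts were lowest for Cd40 (1), Naip6 (6) and Naip5 (8) in KPC controls and Septin4 (2) in MB49 controls. Among the 8 members Birc3 in KPC had the fewest, 57 and 96 over 3 libraries. Small changes after radiation, such as those of Casp2 and Casp9 in KPC, depended on the scaling between libraries.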

Other observations

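The chromosomal neighbours of Birc2 and Birc3, by their order in RefSeq on GRCm38.p6, were looked at after the gap between the lines was seen. Tmem123, next to Birc2, averaged 60.2 CPM in MB49 controls and 16.3 CPM in KPC controls, a log2 difference of -1.88 ± 0.16 (edgeR adjusted p = 1.54e-08). It lay at 46.6 and 11.8 CPM after radiation. Yap1, on the far side next to Birc3, averaged 94.7 and 84.4 CPM in the controls, and its difference of -0.17 ± 0.10 was not called (edgeR adjusted p = 0.141). After radiation Yap1 was at 72.8 CPM in MB49 and 98.7 CPM in KPC, and its responses differed by 0.61 ± 0.14 (edgeR adjusted p = 0.00202). The further neighbours Mmp27, Mmp20, Mmp7, Cfap300, Cep126 and Trpc6 had between 0 and 6 counts in each group.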
